A study of Mus musculus with 13 samples.

Results

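The 41 genes described here encode the digestive enzymes of the lysosome, the helper proteins of those enzymes and proteins of its membrane, in mouse blastocysts from a study of embryonic diapause, the reversible arrest of the embryo before implantation. They are a list of gene symbols, with no cut on measured values, and fall by role into 12 proteases, 14 glycosidases and sulfatases, 8 lipid enzymes and activators, and 7 membrane, sterol and other proteins. All 41 were found among the 31528 genes of the deposited table and all 41 were among the 21808 genes tested. RNA came from whole blastocysts of the B6D2F1 background (C57BL/6 and DBA2J mixed), in 13 libraries. The reference was wild-type blastocysts of embryonic day 4.5 whose mothers ate a normal diet (E4.5, n = 2), and all other groups were of day 5.5. Wild-type blastocysts came from ovariectomised mothers (OVX, n = 2), the hormonal route into diapause, or from a starvation treatment (starvation, n = 2). Others were cultured in KSOM, a defined medium for preimplantation embryos, either without its carbohydrate and protein components (depleted KSOM, n = 2) or with less arginine, glucose, lactate, lysine, isoleucine and leucine (reduced KSOM, n = 3). Blastocysts of the sixth kind (targeted OVX, n = 2) received guide RNAs against Nprl2 and Tsc2, which encode brakes on the growth kinase complex mTORC1, came from ovariectomised mothers and are labelled as a knockout of both genes. Age differs between E4.5 and every other group, and none of these groups was cultured in complete KSOM, so neither age nor culture can be told apart from treatment. Whether replicates of a group had separate mothers or culture dishes is not stated, and p-values therefore reflect the spread between libraries, which may be technical.

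Lysosomes are acidic organelles in which cells break down material from endocytosis and autophagy and return amino acids, sugars and lipids to the cytosol. Their soluble hydrolases are made in the endoplasmic reticulum, tagged with mannose 6-phosphate in the Golgi and delivered by receptors. mTORC1 is recruited and switched on at the lysosomal surface when amino acids are plentiful, and when it is inactive the transcription factor TFEB and its relatives enter the nucleus and bind CLEAR elements, built around the letters TCACGTGA, at many lysosomal genes.

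Because that element is the best known sequence shared by genes of this kind, the promoters of the members were searched for CACGTG, its core, and for TCACGTGA, which contains the core. Both read the same on either strand. RefSeq promoter windows (GRCm38.p6, 250 bases before to 50 after a start) matched 37 of the 41 members. CACGTG lay in a window of 12 of these 37 members (32.4%), against 8.09% of all 27025 genes with a window. TCACGTGA lay in 3 members (8.11%), Ctsa, Ctsd and Gla, against 1.12% of all genes. These matches are a description of the letters in the windows and do not show binding. Calls of members with and without a match were not compared, so the examples printed below do not link the letters to a rise. Stretches that hold matches are printed for 4 members that were higher in at least 1 group than in E4.5 (Ctsa, Gla, Lgmn and Lamp1) and for Ctsd, whose RNA was not called changed in any group. They read 5′ to 3′ on the strand of the gene, and capitals mark the core with the flanking letters of TCACGTGA where those are present.
Ctsa: ctgTCACGTGAtgcagatgcTCACGTGAcc
Gla: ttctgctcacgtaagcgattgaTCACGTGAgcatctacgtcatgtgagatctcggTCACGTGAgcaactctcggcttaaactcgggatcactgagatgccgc
Lgmn: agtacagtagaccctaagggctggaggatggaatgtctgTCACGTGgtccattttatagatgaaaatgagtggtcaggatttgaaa
Lamp1: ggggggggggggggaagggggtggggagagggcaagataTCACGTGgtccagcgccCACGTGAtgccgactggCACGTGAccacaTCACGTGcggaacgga
Ctsd: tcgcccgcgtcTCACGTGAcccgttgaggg
The Ctsa stretch lies at chr2:164833757-164833786 (plus strand), in the 5′ part of the gene within annotated exons, and holds 2 copies of TCACGTGA. The Gla stretch lies at chrX:134601154-134601255 (minus strand), upstream of the annotated exons, and also holds 2 copies. The Lgmn stretch, at chr12:102439096-102439181 (minus strand), overlaps no annotated exon and holds 1 core. The Lamp1 stretch, at chr8:13159060-13159160 (plus strand), ends at the base before the first annotated exon and holds 4 cores. The Ctsd stretch, at chr7:142387908-142387937 (minus strand), lies in an annotated exon and holds 1 copy of TCACGTGA, and a second core in its window, further upstream, is not shown. The start next to the Ctsa matches and that next to the Lgmn match are the second of 2 RefSeq starts of each gene, and the window at the other start holds no match.

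Total counts ran from 40678386 to 72125687 per library. Values below are CPM, counts set against the library's total after scaling by trimmed means (TMM), unless FPKM are named, and a gene was called higher or lower at an adjusted p under 0.05 in edgeR's quasi-likelihood test over all 21808 genes. The blastocyst label was checked with markers: all 10 trophectoderm markers were at 1 CPM or more in every library, and at least 8 of 10 epiblast and 11 of 14 endoderm markers were. Summed epiblast markers ran from 770 to 786 CPM in E4.5 and from 168 to 672 CPM in the other groups. Transcripts of 13 neutrophil and 14 macrophage markers summed to between 1380 and 1915 and between 311 and 433 CPM in reduced KSOM. In OVX replicate 1 they summed to 646 and 520 CPM. Neutrophil markers made 138 CPM in OVX replicate 2 and at most 35.3 CPM elsewhere. Of these 138 CPM, S100a8 and S100a9 made 94.8 and 37.5, and 7 of the 13 markers were at 0. Skeletal muscle transcripts summed to between 1066 and 1472 CPM in the reduced KSOM libraries and OVX replicate 1, and to at most 493 CPM elsewhere. Mylpf made 490 of those 493 CPM, in targeted OVX replicate 1, where 8 of 13 muscle markers were at 0. A further fit, chosen after the data were seen, carries a term for the 4 libraries of reduced KSOM and OVX replicate 1. Mitochondrial transcripts took 12.2% and 13.2% of counts in depleted KSOM and between 2.05% and 7.40% elsewhere. Nprl2 was at 13.9 and 28.6 CPM and Tsc2 at 14.7 and 8.26 CPM in targeted OVX, against 38.0 and 36.5 and against 23.3 and 14.1 CPM in OVX, and neither was called different (adjusted p = 0.55 and 0.58). Counts over a whole gene do not read the targeted site, so these values are no check of the knockout.

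Some lysosomal genes were higher than in E4.5 in every other group, with the most calls in depleted KSOM, and 18 of the 41 were called higher in at least 1 group. Lgmn and Fuca1 were called higher in the 4 wild-type groups, Ctsa, Ctsl, Tpp1, Gm2a and Npc2 in 3 groups, and no member in all 5. Gaa and Psap were the members called lower in any group, and 21 members were called in neither direction. Shares of all genes over the 5 groups together are not given, so the 18 and the 21 have no background. Shares for each group follow. In whole blastocysts, a change in the number of cells of a type and a change in RNA per cell cannot be told apart.

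In OVX, 9 of 41 members were called higher and 0 lower, where 2.04% of all tested genes were called, 1.56% higher and 0.481% lower. At an unadjusted p under 0.05, 18 were higher and 4 lower, DESeq2 called 17 higher and 4 lower, and limma on FPKM 7 higher and 3 lower. Over all genes, DESeq2 called 1317 higher and 702 lower of 21808, and limma 264 higher and 1635 lower of 12957. Unadjusted shares of all genes are given only for targeted OVX and reduced KSOM against OVX, so all other unadjusted counts have no background. The median log2 fold change was 1.09 over the members and 0 over all genes. Scaling by library totals, which moved the median of all genes to −0.53, left 3 higher and 1 lower and a member median of 0.32. Leaving out E4.5 replicate 1 gave 2 and E4.5 replicate 2 gave 3, and the count was 4 without OVX replicate 1 and 11 without OVX replicate 2, and Lgmn was the 1 call kept in all 4. It was 4 with the term for libraries with muscle transcripts, where 227 of all genes were called.

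In starvation, 12 members were called higher and 0 lower, against 2.21% of all genes, 1.68% higher and 0.532% lower. The unadjusted counts were 20 higher and 1 lower, DESeq2 called 17 higher and 0 lower, and limma 10 higher and 0 lower. In the whole table, DESeq2 called 1301 higher and 998 lower of 21808, and limma 481 higher and 1255 lower of 12957. The medians were 1.10 over the members and 0 over all genes. Library totals as scaling moved the median of all genes to −0.17 and left 5 calls, all higher. Leaving out E4.5 replicate 1 gave 3 and E4.5 replicate 2 gave 2, and the count was 12 without starvation replicate 1 and 8 without starvation replicate 2, and again Lgmn alone was kept in all 4.

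Depleted KSOM had the most calls, 14 higher and 0 lower, against 5.51% of all genes, 3.29% higher and 2.21% lower. The unadjusted counts were 17 higher and 0 lower, DESeq2 called 17 higher and 0 lower, and limma 15 higher and 0 lower. For all genes, DESeq2 gave 1494 higher and 1787 lower of 21808, and limma 742 higher and 1921 lower of 12957. The medians were 1.23 over the members and −0.09 over all genes. Leaving out E4.5 replicate 1 gave 8 and E4.5 replicate 2 gave 8, and the count was 9 without depleted KSOM replicate 1 and 12 without replicate 2. Calls of 6 members, Gm2a, Ctsa, Lgmn, Hexa, Fuca1 and Tpp1, were kept in all 4.

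In reduced KSOM, 4 members were called higher and 1 lower, against 1.13% of all genes, 0.77% higher and 0.362% lower. The unadjusted counts were 19 higher and 2 lower, DESeq2 called 13 higher and 1 lower, and limma 3 higher and 2 lower. Among all genes, DESeq2 called 1204 higher and 578 lower of 21808, and limma 379 higher and 1791 lower of 12957. The fit with a term for libraries with muscle transcripts called 2 of all genes. The medians were 0.89 over the members and 0.15 over all genes. Library totals moved the median of all genes to −0.50 and turned the split to 1 higher and 2 lower. The count was between 0 and 3 when any 1 of the 5 libraries was left out (3 and 0 without E4.5 replicates 1 and 2, and 0, 1 and 1 without reduced KSOM replicates 1, 2 and 3), and 0 with the term for libraries with muscle transcripts, which all 3 of its libraries carry.

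In targeted OVX, 2 members were called higher and 2 lower than in E4.5, against 2.66% of all genes, 1.68% higher and 0.986% lower. Unadjusted, 9 were higher and 6 lower, DESeq2 called 6 higher and 6 lower, and limma 2 higher and 5 lower. A minimum mean CPM of 5 also gave 2 higher and 5 lower. Of all 21808 genes, DESeq2 called 1368 higher and 1199 lower. Lower calls by limma were common across the table, at 1989 of 12957 genes, with 329 higher. The minimum mean CPM gave 651 higher and 388 lower of 9292. The medians were 0.38 over the members and −0.16 over all genes. With library totals these were −0.38 and −0.92, and 1 member was higher and 5 lower, so the sign of the member median depended on the scaling. Median-of-ratios scaling and offsets for gene length each gave 2 higher and 1 lower. Leaving out E4.5 replicate 1 gave 2 and E4.5 replicate 2 gave 1, and the count was 3 without targeted OVX replicate 1 and 1 without replicate 2. Ctsc was called in all 4. These 5 comparisons share the E4.5 libraries and are not independent of each other. In most of their leave-outs fewer of all genes were called too, so a drop in the member count there is not particular to the members. Without reduced KSOM replicates 1, 2 and 3, for example, 9, 37 and 31 of all genes were called in reduced KSOM against E4.5. The main fit called 247.

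**Figure D1:**
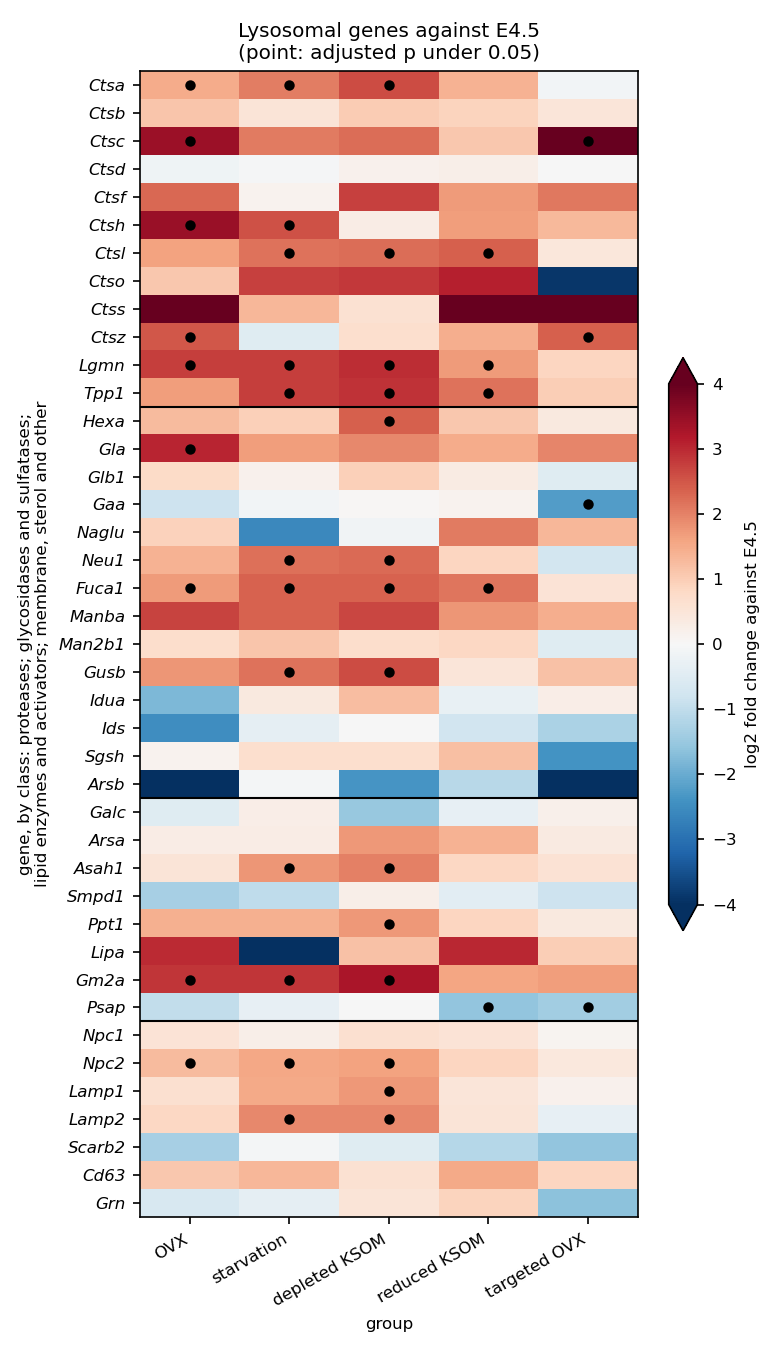
Log2 fold change of each of the 41 members (rows, by class) against E4.5 in the 5 other groups (columns). Points mark an adjusted p under 0.05, and colours at the ends of the scale without a point, such as Ctso, Arsb and Lipa, belong to genes near 0 counts. Most points lie in the OVX, starvation and depleted KSOM columns, with 9, 12 and 14 higher.

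Of the 12 proteases, 5 were called higher in OVX, 4 in depleted KSOM, 5 in starvation, 3 in reduced KSOM and 2 in targeted OVX. Lgmn encodes legumain, an endopeptidase that cuts after asparagine and matures other cathepsins (ENSMUSG00000021190, chromosome 12, 102394084 to 102439813). Its level was 41.2 and 44.5 CPM in E4.5, 255 and 326 in OVX, 329 and 332 in depleted KSOM, 310 and 279 in starvation, 144, 95.9 and 177 in reduced KSOM, and 89.4 and 66.7 in targeted OVX. The libraries of every other group lay above both E4.5 libraries, and the OVX, starvation and depleted KSOM libraries also lay above those of reduced KSOM and targeted OVX. The log2 fold change was 2.76 ± 0.35 (SE) in OVX (n = 2 and 2, adjusted p = 0.0035), 2.78 ± 0.35 in starvation (n = 2 and 2, adjusted p = 0.0041), 2.95 ± 0.35 in depleted KSOM (n = 2 and 2, adjusted p = 0.0018) and 1.70 ± 0.32 in reduced KSOM (n = 3 and 2, adjusted p = 0.026). The reduced KSOM call was lost without E4.5 replicate 1 or 2 (adjusted p = 0.21 and 0.19), reduced KSOM replicate 1 (0.1) or replicate 3 (0.11).

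Ctsa encodes cathepsin A, a carboxypeptidase that also protects the sialidase and β-galactosidase of the lysosome (ENSMUSG00000017760, chromosome 2, 164832873 to 164840019). It was at 162 and 178 CPM in E4.5, 474 and 487 in OVX, 1169 and 890 in depleted KSOM, 937 and 469 in starvation, 457, 436 and 436 in reduced KSOM, and 143 and 170 in targeted OVX. The wild-type groups of day 5.5 all lay above E4.5, while targeted OVX overlapped E4.5. The rise was 2.82-fold in OVX (adjusted p = 0.045), 4.13-fold in starvation (adjusted p = 0.013) and 6.04-fold in depleted KSOM (adjusted p = 0.0026). The OVX call was lost in each leave-out, with adjusted p of 0.26 and 0.23 without E4.5 replicates 1 and 2 and 0.078 and 0.056 without OVX replicates 1 and 2, and the starvation call without E4.5 replicate 1 (0.12) or replicate 2 (0.076).

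Tpp1, a tripeptidyl peptidase whose loss causes a childhood storage disease of neurons, stood at 11.1 and 13.7 CPM in E4.5, 40.2 and 38.1 in OVX, 112 and 73.8 in depleted KSOM, 42.2 and 127 in starvation, 60.8, 49.0 and 58.1 in reduced KSOM, and 22.7 and 26.4 in targeted OVX. All libraries of day 5.5 lay above E4.5, those of targeted OVX nearest to it. The log2 fold change was 2.77 in starvation, 2.91 in depleted KSOM and 2.17 in reduced KSOM (adjusted p = 0.013, 0.0055 and 0.036). The starvation call was lost without E4.5 replicate 1 (0.1) or 2 (0.055), and the reduced KSOM call in each of 5 leave-outs (0.21 and 0.16 without E4.5 replicates 1 and 2, 0.12, 0.087 and 0.11 without reduced KSOM replicates 1, 2 and 3). Ctsl, the endopeptidase cathepsin L, was at 203 and 85.6 CPM in E4.5, 385 and 492 in OVX, 883 and 475 in depleted KSOM, 592 and 710 in starvation, 761, 595 and 903 in reduced KSOM, and 223 and 168 in targeted OVX. Targeted OVX overlapped E4.5 and the other groups lay above both. It was the most raised protease of reduced KSOM among the 3 called there, at 5.23-fold (adjusted p = 0.024), but its E4.5 libraries stood apart, and without E4.5 replicate 2 the adjusted p was 0.17. That call was also lost without reduced KSOM replicate 1 (0.088), 2 (0.064) or 3 (0.093). The starvation call (4.52-fold, adjusted p = 0.028) was lost without E4.5 replicate 2 (0.17) or starvation replicate 2 (0.053), and the depleted KSOM call (4.71-fold, adjusted p = 0.014) without E4.5 replicate 2 (0.091) or depleted KSOM replicate 1 (0.096).

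Other proteases were called higher in groups from ovariectomised mothers. Ctsc encodes cathepsin C, a dipeptidyl peptidase that activates serine proteases of granules (ENSMUSG00000030560, chromosome 7, 88278085 to 88310888). It was at 45.6 and 63.3 CPM in E4.5, 810 and 346 in OVX, 432 and 2284 in targeted OVX, 268 and 241 in depleted KSOM, 254 and 210 in starvation, and 119, 72.2 and 153 in reduced KSOM. The 2 targeted OVX libraries stood far apart, yet both lay above all E4.5, starvation, depleted KSOM and reduced KSOM libraries. The rise over E4.5 was 24.9-fold in targeted OVX (log2 4.64 ± 0.72 SE, n = 2 and 2, adjusted p = 0.0091) and 10.6-fold in OVX (3.41 ± 0.68 SE, n = 2 and 2, adjusted p = 0.027). The OVX call ended without E4.5 replicate 1 or 2 (adjusted p = 0.094 and 0.067) or OVX replicate 1 (0.068).

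Ctsz, the carboxypeptidase cathepsin Z, was at 45.4 and 19.5 CPM in E4.5, 138 and 227 in OVX, 144 and 198 in targeted OVX, 60.4 and 43.5 in depleted KSOM, 16 and 30.8 in starvation, and 95.9, 82.0 and 87.8 in reduced KSOM. Both groups from ovariectomised mothers lay above all other libraries. The rise was 5.62-fold in OVX (adjusted p = 0.02) and 5.26-fold in targeted OVX (adjusted p = 0.021), and these calls were lost without E4.5 replicate 2 (adjusted p = 0.14 and 0.17) and, for targeted OVX, without its replicate 2 (0.063). Ctsh, the aminopeptidase cathepsin H, was at 5.74 and 6.52 CPM in E4.5, 27.5 and 108 in OVX, 5.41 and 9.76 in depleted KSOM, 50.4 and 21.7 in starvation, 18.4, 19.5 and 21.1 in reduced KSOM, and 14.4 and 15.6 in targeted OVX. It was called in OVX (adjusted p = 0.017) and starvation (adjusted p = 0.048), and both calls were lost without E4.5 replicate 1 (0.08 and 0.24) or replicate 2 (0.073 and 0.16). The starvation call was also lost without starvation replicate 1 (0.11).

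Ctsb and Ctsd, the broad endopeptidases cathepsin B and cathepsin D, were not called in any group. Ctsd was at 176 and 170 CPM in E4.5 and between 122 and 245 CPM elsewhere, so the other groups spread to both sides of E4.5, with log2 fold changes from −0.18 to 0.25. Ctsb was at 122 and 85.6 CPM in E4.5 and between 88.2 and 342 CPM elsewhere.

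Ctss, cathepsin S, is abundant in antigen-presenting cells. It was at 0.319 and 0.391 CPM in E4.5, 66.2 and 3.43 in OVX, 0.666 and 0.418 in depleted KSOM, 0 and 1.79 in starvation, 14.7, 15.3 and 17.0 in reduced KSOM, and 5.83 and 6.99 in targeted OVX. It was not called against E4.5, with an adjusted p of 0.07 in OVX and 0.13 in reduced KSOM. Its highest library, OVX replicate 1, also had 520 CPM of macrophage and 646 CPM of neutrophil markers, with none of these 27 markers at 0. In that library 10 of 14 macrophage and 10 of 13 neutrophil markers were at 1 CPM or more. The reduced KSOM libraries, next in order, had 314, 433 and 311 CPM of macrophage markers. In the 2 targeted OVX libraries macrophage markers summed to 64.1 and 69.3 CPM, of which Lyz2 made 52.8 and 57.6, and Adgre1, Fcgr1 and Itgam were at 0 in the first of them. In the other 7 libraries, OVX replicate 2 among them, macrophage markers summed to at most 19.2 CPM and Aif1 was at 0. Their part in the Ctss values was not tested.

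**Figure D2:**
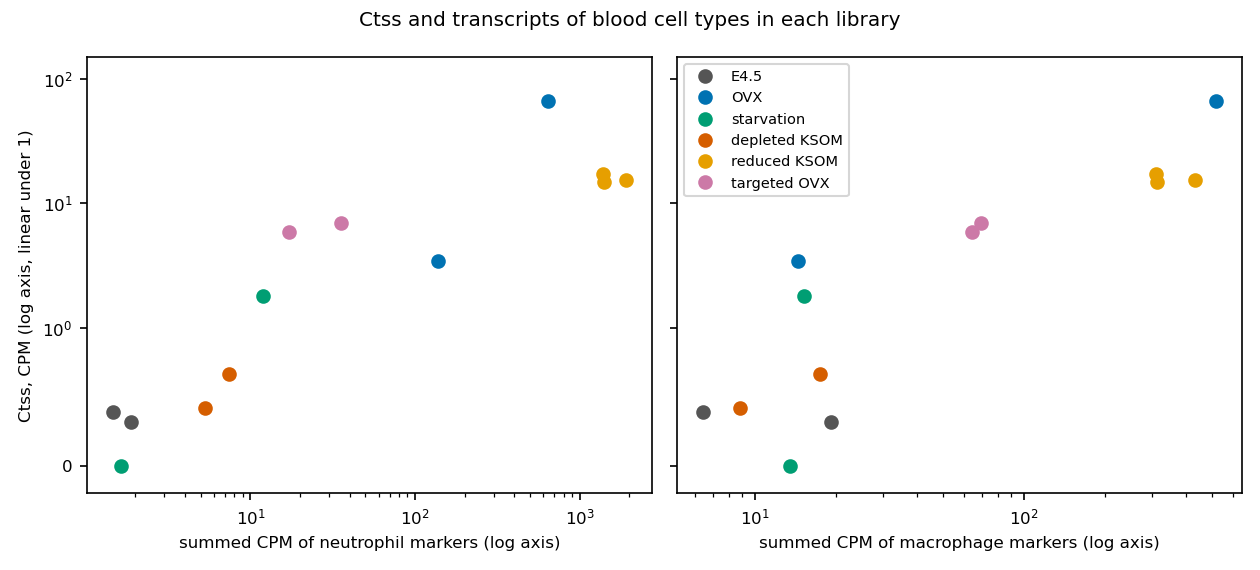
Ctss (vertical axis, CPM, log scale above 1) against the summed CPM of 13 neutrophil markers (left) and 14 macrophage markers (right, both log axes), 1 point per library. OVX replicate 1 lies highest at 66.2 CPM, and the 3 reduced KSOM libraries follow at 14.7 to 17.0 CPM with high marker sums.

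Among the 14 glycosidases and sulfatases, 2 were called higher in OVX, 3 in starvation, 4 in depleted KSOM and 1 in reduced KSOM, and 1 was called lower in targeted OVX. Fuca1, the α-L-fucosidase that trims fucose from glycoproteins (ENSMUSG00000028673, chromosome 4, 135920735 to 135940311), was at 93.0 and 52.4 CPM in E4.5, 257 and 214 in OVX, 396 and 348 in depleted KSOM, 376 and 374 in starvation, 339, 373 and 242 in reduced KSOM, and 115 and 95.8 in targeted OVX. Targeted OVX lay just above E4.5 and below all wild-type libraries of day 5.5. The log2 fold changes were 1.70 ± 0.34 (SE, n = 2 and 2, adjusted p = 0.028) in OVX, 2.37 ± 0.35 (SE, n = 2 and 2, adjusted p = 0.0099) in starvation, 2.36 ± 0.35 (SE, n = 2 and 2, adjusted p = 0.0038) in depleted KSOM and 2.13 ± 0.33 (SE, n = 3 and 2, adjusted p = 0.015) in reduced KSOM. Without E4.5 replicate 2 the adjusted p was 0.28, 0.071 and 0.15 in OVX, starvation and reduced KSOM. The OVX call was also lost without OVX replicate 1 (0.072) and reached 0.05 without E4.5 replicate 1, and the reduced KSOM call was lost without its replicate 1 (0.062) or 2 (0.058).

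Hexa encodes the α subunit of β-hexosaminidase, the enzyme lacking in Tay-Sachs disease (ENSMUSG00000025232, chromosome 9, 59539540 to 59565109). It was at 89.3 and 112 CPM in E4.5, 223 and 262 in OVX, 661 and 387 in depleted KSOM, 196 and 194 in starvation, 208, 234 and 193 in reduced KSOM, and 93.6 and 168 in targeted OVX. Depleted KSOM was above every other library, and its 5.21-fold rise (adjusted p = 0.0044) was the 1 call of the gene against E4.5. Gla encodes α-galactosidase A, the enzyme lacking in Fabry disease. It was at 24.6 and 54.8 CPM in E4.5, 521 and 139 in OVX, 160 and 143 in depleted KSOM, 159 and 94.2 in starvation, 90.7, 88.3 and 151 in reduced KSOM, and 161 and 146 in targeted OVX. All libraries of day 5.5 lay above E4.5, OVX replicate 1 far above the rest. OVX was called (8.31-fold, adjusted p = 0.023) and the other groups were not. Leaving out E4.5 replicate 1 (0.1) or OVX replicate 1 (0.098) ended the call.

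Neu1, the lysosomal sialidase, was at 38.9 and 50.4 CPM in E4.5, 77.8 and 157 in OVX, 296 and 137 in depleted KSOM, 194 and 221 in starvation, 91.5, 78.4 and 75.3 in reduced KSOM, and 30.1 and 23.8 in targeted OVX. Targeted OVX lay below both E4.5 libraries and the other groups above them. It rose 4.65-fold in starvation (adjusted p = 0.02) and 4.84-fold in depleted KSOM (adjusted p = 0.01), and was not called elsewhere. Gusb, β-glucuronidase, was at 18.9 and 13.5 CPM in E4.5, 40.7 and 69 in OVX, 111 and 87.9 in depleted KSOM, 48.1 and 99.0 in starvation, 26.6, 15.0 and 25.9 in reduced KSOM, and 42.9 and 29.8 in targeted OVX. Reduced KSOM overlapped E4.5 and the other groups lay above it. The rise was 4.54-fold in starvation (adjusted p = 0.03) and 6.15-fold in depleted KSOM (adjusted p = 0.0081). Both calls of Neu1 were lost without E4.5 replicate 1 (0.16 in starvation and 0.081 in depleted KSOM), the first also without E4.5 replicate 2 (0.076) and the second without depleted KSOM replicate 1 (0.091). Those of Gusb were lost without E4.5 replicate 2 (0.18 and 0.054), and that in starvation also without E4.5 replicate 1 (0.13) or starvation replicate 2 (0.12).

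Gaa, the acid α-glucosidase that digests glycogen, went the other way in targeted OVX. It was at 32.0 and 35.6 CPM in E4.5, 18.1 and 19.7 in OVX, 43.9 and 25.3 in depleted KSOM, 48.0 and 14.4 in starvation, 40.3, 34.5 and 35.9 in reduced KSOM, and 9.46 and 5.02 in targeted OVX. Targeted OVX lay below all other libraries, and it was 4.66-fold lower than E4.5 (adjusted p = 0.048). The call ended without E4.5 replicate 1 (0.097), E4.5 replicate 2 (0.17) or targeted OVX replicate 2 (0.24). Glb1, Man2b1, Manba and Sgsh, which remove galactose, mannose and sulfate groups, were not called in any group. Over the 13 libraries Glb1 ran from 48.9 to 192 CPM, Man2b1 from 8.20 to 41.9, Manba from 1.33 to 18.4 and Sgsh from 0.812 to 21.8.

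Of the 8 lipid enzymes and activators, 1 was called higher in OVX, 2 in starvation and 3 in depleted KSOM, and 1 was called lower in each of reduced KSOM and targeted OVX. Gm2a encodes the activator that lifts GM2 ganglioside from the membrane for β-hexosaminidase (ENSMUSG00000000594, chromosome 11, 55098115 to 55113029). It was at 659 and 1242 CPM in E4.5, 9088 and 4623 in OVX, 8139 and 9991 in depleted KSOM, 9023 and 4734 in starvation, 2604, 2526 and 3321 in reduced KSOM, and 3343 and 2779 in targeted OVX. Every library of day 5.5 lay above E4.5, and those of OVX, starvation and depleted KSOM also lay above those of reduced KSOM and targeted OVX. The rise was 7.21-fold in OVX (log2 2.85 ± 0.49 SE, n = 2 and 2, adjusted p = 0.013), 7.24-fold in starvation (2.86 ± 0.49 SE, n = 2 and 2, adjusted p = 0.013) and 9.54-fold in depleted KSOM (3.25 ± 0.49 SE, n = 2 and 2, adjusted p = 0.0041). It was not called in reduced KSOM (adjusted p = 0.11) or targeted OVX (adjusted p = 0.073), and the calls in OVX and starvation were lost without E4.5 replicate 1 (0.073 and 0.094).

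Psap, whose product is cut into the saposins, the activators of several sphingolipid hydrolases (ENSMUSG00000004207, chromosome 10, 60277627 to 60302597), was lower. It was at 611 and 941 CPM in E4.5, 453 and 325 in OVX, 840 and 681 in depleted KSOM, 640 and 592 in starvation, 222, 256 and 293 in reduced KSOM, and 323 and 272 in targeted OVX. Starvation and depleted KSOM overlapped E4.5, and the other groups lay below it. The log2 fold change was −1.59 ± 0.29 in reduced KSOM (SE, n = 3 and 2, adjusted p = 0.024) and −1.38 ± 0.32 in targeted OVX (SE, n = 2 and 2, adjusted p = 0.044). Both were lost without E4.5 replicate 2 (0.27 and 0.37), and the first also without reduced KSOM replicate 1 (0.13), 2 (0.099) or 3 (0.086), the second without E4.5 replicate 1 (0.07) and targeted OVX replicate 1 (0.083) or 2 (0.23).

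Asah1, acid ceramidase, was at 48.9 and 73.4 CPM in E4.5, 95.4 and 78.5 in OVX, 266 and 233 in depleted KSOM, 161 and 252 in starvation, 131, 81.6 and 112 in reduced KSOM, and 92.5 and 90.6 in targeted OVX. All libraries of day 5.5 lay above E4.5, with starvation and depleted KSOM above the rest. It rose 3.38-fold in starvation (adjusted p = 0.024) and 4.08-fold in depleted KSOM (adjusted p = 0.0075). Without E4.5 replicate 1 both Asah1 calls were lost (0.26 and 0.089), and the starvation call also without E4.5 replicate 2 (0.076) or starvation replicate 2 (0.088). Ppt1, which removes palmitate from proteins, was at 16.4 and 26.7 CPM in E4.5, 73.0 and 41.7 in OVX, 65.6 and 77.1 in depleted KSOM, 54.3 and 60.2 in starvation, 43.1, 32.6 and 40.9 in reduced KSOM, and 35.8 and 20.2 in targeted OVX. Targeted OVX overlapped E4.5 and the other groups lay above it. It was called in depleted KSOM (3.30-fold, adjusted p = 0.028), a call lost in each of the 4 leave-outs (0.25 without E4.5 replicate 1, 0.061 without replicate 2, and 0.083 and 0.13 without depleted KSOM replicates 1 and 2). Smpd1, acid sphingomyelinase, was at 103 and 171 CPM in E4.5 and between 41.7 and 191 CPM elsewhere, and was not called in any group.

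Of the 7 membrane, sterol and other proteins, 1 was called higher in OVX, 2 in starvation and 3 in depleted KSOM. Npc2, the soluble cholesterol carrier of the lysosome (ENSMUSG00000021242, chromosome 12, 84754562 to 84773152), was at 194 and 195 CPM in E4.5, 506 and 438 in OVX, 592 and 587 in depleted KSOM, 540 and 606 in starvation, 344, 334 and 376 in reduced KSOM, and 252 and 271 in targeted OVX. The groups of day 5.5 were all above E4.5, with targeted OVX the nearest to it. The rise was 2.43-fold in OVX (adjusted p = 0.03), 2.95-fold in starvation (adjusted p = 0.013) and 3.03-fold in depleted KSOM (adjusted p = 0.0066). All 3 calls were lost without E4.5 replicate 1 (0.25, 0.16 and 0.083) or 2 (0.27, 0.13 and 0.066), and that in OVX also without OVX replicate 1 (0.085). Npc1, the membrane protein that takes cholesterol from Npc2, was between 31.7 and 110 CPM over all 13 libraries and was not called in any group.

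Lamp1 and Lamp2 encode abundant glycoproteins of the lysosomal membrane. Lamp1 (ENSMUSG00000031447, chromosome 8, 13159161 to 13175338) was at 309 and 378 CPM in E4.5, 401 and 668 in OVX, 1326 and 959 in depleted KSOM, 882 and 1077 in starvation, 461, 451 and 522 in reduced KSOM, and 272 and 505 in targeted OVX. Starvation and depleted KSOM lay above the rest, and depleted KSOM was called (3.33-fold, adjusted p = 0.02), starvation not (adjusted p = 0.059). Lamp2 was at 35.2 and 29.5 CPM in E4.5, 44.0 and 71.2 in OVX, 126 and 117 in depleted KSOM, 70.1 and 174 in starvation, 48.0, 44.7 and 47.3 in reduced KSOM, and 29.8 and 21.2 in targeted OVX. Targeted OVX overlapped E4.5 and the other groups lay above it. Starvation and depleted KSOM were called (3.77-fold each, adjusted p = 0.036 and 0.021). The Lamp1 call was lost without E4.5 replicate 1 (0.15), E4.5 replicate 2 (0.072) or depleted KSOM replicate 1 (0.13), and the Lamp2 call in depleted KSOM in each leave-out (0.096 and 0.12 without E4.5 replicates 1 and 2, 0.085 and 0.062 without depleted KSOM replicates 1 and 2). The Lamp2 call in starvation was lost without E4.5 replicate 1 (0.17), E4.5 replicate 2 (0.2) or starvation replicate 2 (0.2). Cd63, a tetraspanin of late endosomes, was at 2063 and 1934 CPM in E4.5, 4189 and 4324 in OVX, 3052 and 3026 in depleted KSOM, 6266 and 3675 in starvation, 6011, 5609 and 5682 in reduced KSOM, and 5169 and 2031 in targeted OVX. Targeted OVX overlapped E4.5 and the other groups lay above it, but none was called. Scarb2, a receptor that carries glucocerebrosidase to the lysosome, and Grn, progranulin, were not called either. Scarb2 ran from 10.5 to 50.9 CPM and Grn from 34.1 to 262 CPM, each with its lowest fold change in targeted OVX (log2 −1.57 and −1.64, adjusted p = 0.086 and 0.059).

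**Figure D3:**
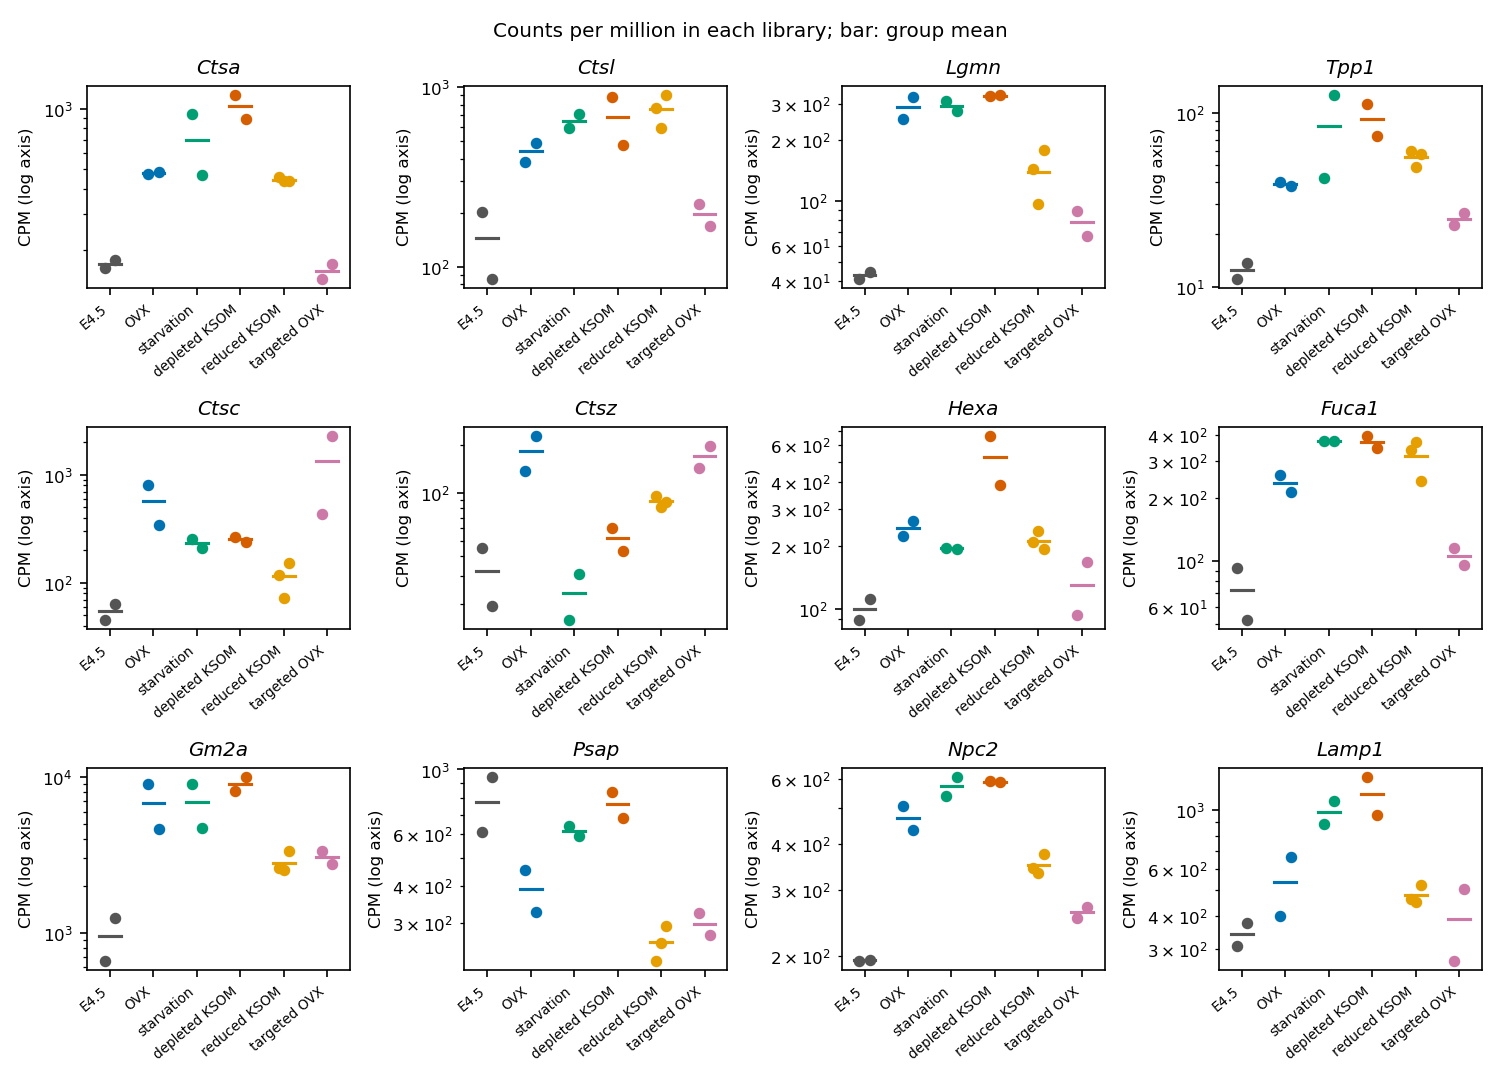
CPM of 12 members in each of the 13 libraries (points, log axes that differ between panels), by group, with the group mean as a bar. Lgmn, Gm2a and Npc2 lie highest in OVX, starvation and depleted KSOM, Ctsz in both groups from ovariectomised mothers, and Psap is lowest in reduced KSOM at 222 to 293 CPM.

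Members near the floor of detection are part of the 41 and carry little information. Ctsf, Ctso, Naglu, Idua, Ids, Arsb, Galc, Arsa and Lipa, 9 members, were at or below 6.46 CPM in every library, and edgeR called none of them. Arsb, a sulfatase of dermatan sulfate, had no counts in the libraries of OVX and targeted OVX, against 1.26 and 0.724 CPM in E4.5, which is at least 14.7-fold and 12.4-fold lower with a floor of 3 counts per library. Lipa, the acid lipase, had no counts in starvation, and Ctso none in targeted OVX.

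To compare genes with each other the deposited FPKM were used, which are per length and per library total and carry no TMM scaling. The 41 genes summed to 2068 ± 346 FPKM in E4.5 (mean ± SD, n = 2), 3502 ± 605 in OVX (n = 2), 4966 ± 1006 in starvation (n = 2), 5351 ± 320 in depleted KSOM (n = 2), 2762 ± 64.7 in reduced KSOM (n = 3) and 2095 ± 88.7 in targeted OVX (n = 2). Gm2a and Cd63 were among the 3 highest of the 41 in each group. Gm2a alone made 13.5% ± 4.2 of the sum in E4.5 (mean ± SD, n = 2), 36.7% ± 10.5 in OVX (n = 2), 34.0% ± 6.1 in starvation (n = 2) and 41.5% ± 7.3 in depleted KSOM (n = 2), against 19.2% ± 2.2 in reduced KSOM (n = 3) and 26.1% ± 0.2 in targeted OVX (n = 2). Without Gm2a and Cd63 the sums were 1116 ± 215 in E4.5 (n = 2), 1294 ± 391 in OVX (n = 2), 1850 ± 61.8 in starvation (n = 2), 2309 ± 553 in depleted KSOM (n = 2), 1013 ± 29.0 in reduced KSOM (n = 3) and 844 ± 307 in targeted OVX (n = 2). Without these genes OVX, reduced KSOM and targeted OVX each differed from E4.5 by less than the larger of the 2 SDs, which is no test. TMM factors, which FPKM do not carry, were 1.34 and 1.41 in E4.5 and between 0.671 and 1.14 in these 3 groups. The median log2 difference of all genes on FPKM was −0.39 in OVX, −0.42 in reduced KSOM and −0.51 in targeted OVX. The sums therefore do not show that the remaining members were unchanged. Psap ranked second in E4.5 and eighth in reduced KSOM.

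Within the ovariectomy groups, targeting Nprl2 and Tsc2 went with lower values for most lysosomal genes, but no single gene passed the test. Targeted OVX was compared with OVX to ask what goes with targeting these mTORC1 brakes in embryos of ovariectomised mothers. By edgeR 0 of 41 members were called, where 0.0367% of all genes were, 0.00459% higher and 0.0321% lower. At an unadjusted p under 0.05, 16 members were lower and 0 higher, where 7.74% of all genes were lower and 3.13% higher by that rule. DESeq2 called 7 lower, and limma on FPKM 0. Of all genes, DESeq2 called 224 higher and 661 lower, and limma 24 higher and 12 lower. The median was −0.85 over the members (−0.67 with genes without counts set at the floor) and −0.09 over all genes, and 9 of 41 members lay above 0. Library totals gave −0.97 and −0.26. Lgmn was at 89.4 and 66.7 against 255 and 326 CPM (log2 −1.89 ± 0.34 SE, n = 2 and 2, adjusted p = 0.072), Neu1 at 30.1 and 23.8 against 77.8 and 157 CPM (−2.12 ± 0.42 SE, n = 2 and 2, adjusted p = 0.098) and Ctsa at 143 and 170 against 474 and 487 CPM (−1.61 ± 0.34 SE, n = 2 and 2, adjusted p = 0.12). None of these 3 genes overlapped between the groups, but the share of all genes without overlap is not given here. Without OVX replicate 1, the library with muscle and blood cell transcripts, some members were called lower, but more of all genes were called lower too. Among the proteases whose groups overlapped were Ctsc, at 432 and 2284 against 810 and 346 CPM, Ctsz, at 144 and 198 against 138 and 227 CPM, and Ctsd, at 186 and 153 against 183 and 122 CPM.

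Few members were called between OVX and the other wild-type groups. In starvation 1 was called lower, Ctsz (log2 −2.96 ± 0.48 SE, n = 2 and 2, adjusted p = 0.038), where 0.225% of all genes were called, 0.078% higher and 0.147% lower. Ctsz was at 16 and 30.8 CPM in starvation and 138 and 227 CPM in OVX, and the call was kept without any 1 library. More members were called without OVX replicate 2 or without starvation replicate 2, but so were more of all genes. At an unadjusted p under 0.05, 6 members were higher and 4 lower, DESeq2 called 2 higher and 3 lower, and limma 0 higher and 1 lower. Of all genes, DESeq2 called 683 higher and 984 lower, and limma 220 higher and 58 lower. The member median was 0.28 and that of all genes 0. In depleted KSOM against OVX, 1 member was called lower, Ctsh (−3.16 ± 0.62 SE, n = 2 and 2, adjusted p = 0.04), against 0.679% of all genes, 0.289% higher and 0.39% lower. It was at 5.41 and 9.76 against 27.5 and 108 CPM, groups that do not overlap, and the call was lost without OVX replicate 2 (0.08) or depleted KSOM replicate 1 (0.22) or 2 (0.1). More members were called without OVX replicate 2, as were more of all genes, and Ctsh was not among those members. Unadjusted, 10 members were higher and 3 lower, DESeq2 called 6 higher and 3 lower, and limma 2 higher and 0 lower. Among all genes, DESeq2 called 546 higher and 1469 lower, and limma 281 higher and 139 lower. Unadjusted shares of all genes are not given for starvation or depleted KSOM against OVX. The member median was 0.52 and that of all genes −0.03. In reduced KSOM against OVX edgeR called 0 members, where 0.202% of all genes were called, 0.0229% higher and 0.179% lower. At an unadjusted p under 0.05, 3 members were higher and 7 lower, against 4.38% and 5.09% of all genes. DESeq2 called 2 members higher and 3 lower, where 366 and 351 of all genes were called. By limma on FPKM 0 members were called, and 80 of all genes were higher and 59 lower. Without OVX replicate 1 edgeR called a member lower, and it also called more of all genes lower.

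The 2 culture media were compared directly. In reduced against depleted KSOM, 10 members were called lower and 0 higher, where 5.79% of all genes were called, 2.99% higher and 2.80% lower. At an unadjusted p under 0.05, 12 were lower and 3 higher, DESeq2 called 11 lower and 3 higher, and limma 12 lower and 1 higher. Over all genes, DESeq2 called 1201 lower and 2401 higher of 21808, and limma 1425 lower and 1020 higher of 12957. The unadjusted share of all genes is not given for this comparison. The medians were −0.64 over the members and 0.29 over all genes, and −1.01 and 0 with library totals. The 10 included the membrane proteins Lamp1 and Lamp2, the proteases Ctsa and Lgmn, the glycosidases Hexa, Neu1 and Gusb, and the lipid genes Gm2a, Psap and Asah1. Gusb differed most among them, at 26.6, 15.0 and 25.9 against 111 and 87.9 CPM (log2 −2.15 ± 0.40 SE, n = 3 and 2, adjusted p = 0.015), followed by Gm2a at −1.69 ± 0.41 (SE, n = 3 and 2, adjusted p = 0.034) and Psap at −1.56 ± 0.29 (SE, n = 3 and 2, adjusted p = 0.015). Groups did not overlap in any of the 10, but these were picked by the test on the same libraries. The share of all genes without overlap is not given here. Cd63 lay the other way, at 6011, 5609 and 5682 against 3052 and 3026 CPM, but was not called (adjusted p = 0.19). The count was 0 without depleted KSOM replicate 1, 3 without replicate 2 and 0 without any of the reduced KSOM libraries, so no call was kept in all 5 leave-outs, and it was 4 with offsets for gene length and 0 with the term for libraries with muscle transcripts. With that term 0 of all 21808 genes were called in this comparison, and OVX replicate 1 is the only other library that carries it. That 0 therefore says nothing about the 10 members. Over all genes, 133, 202 and 121 were called without reduced KSOM replicates 1, 2 and 3, where the main fit called 1263. The fall of the member count in these leave-outs thus came with a fall over all genes. Mitochondrial transcripts were at 12.2% and 13.2% in depleted KSOM and 4.12% to 6.26% in reduced KSOM. Neutrophil markers were at most 7.45 CPM in depleted and at least 1380 CPM in reduced KSOM. Both moved with this comparison, and their part was not tested.

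**Figure D4:**
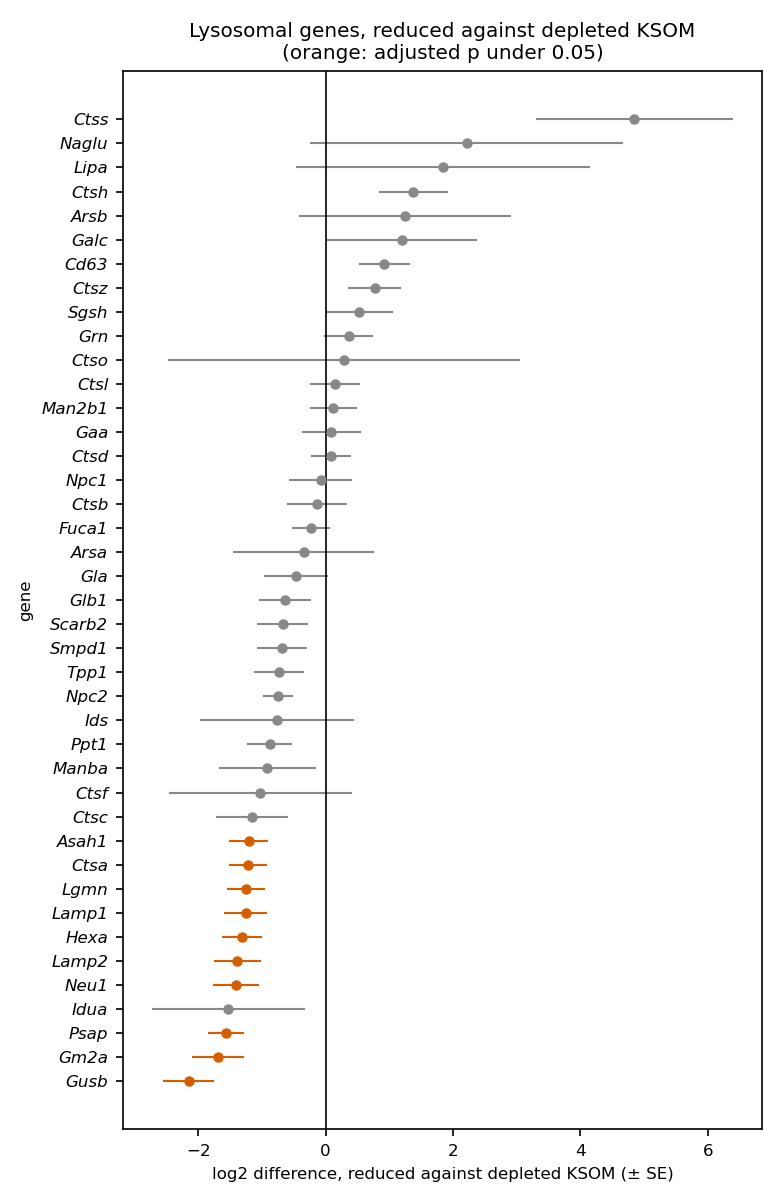
Log2 difference between reduced and depleted KSOM for each of the 41 members (points, with the SE of the fit as bars), ordered by size. The 10 members called (orange) lie between −2.15 and −1.21, and 15 of 41 members lie above 0.

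Other genes of the same organelle, chosen by function, were counted in the same fit. Of all genes, 1.56% were called higher than E4.5 in OVX, 1.68% in starvation and 3.29% in depleted KSOM. In reduced KSOM and targeted OVX, 0.77% and 1.68% were. Shares called lower were 2.21% in depleted KSOM and 0.986% in targeted OVX. Single calls are therefore not read as a result about a list, and the unadjusted counts have no background. Of 32 other lysosomal hydrolases tested, Acp5, Ggh, Rnaset2a and Rnaset2b were called higher than E4.5 in targeted OVX, and 0 were called lower there by edgeR, where 2 were lower at an unadjusted p under 0.05. Of 31 lysosomal membrane transport genes, 1 was called higher in starvation (Tmem106b), 5 in depleted KSOM (Ctns, Laptm4a, Tmem106b, Cln3 and Lmbrd1) and 1 in reduced KSOM (Tpcn1), and edgeR called 0 in OVX and 0 in targeted OVX, where 2 and 1 were higher and 2 and 6 lower at an unadjusted p under 0.05. Of 19 genes that tag or sort hydrolases, 4 were called higher in depleted KSOM (M6pr, the receptor for the mannose 6-phosphate tag, and the retromer genes Vps26a, Vps29 and Vps35) and Vps29 also in OVX and targeted OVX, where Ap1g1 was called lower. Of 5 cathepsin inhibitors tested, Cstb and Cst3 were called higher in OVX, Cstb and Cst6 in reduced KSOM and Cst3 in targeted OVX, and Csta1 was called lower in depleted KSOM. Cstb, cystatin B, was at 5634 and 2172 CPM in OVX and 3961, 3597 and 4188 in reduced KSOM, against 993 and 742 in E4.5, with its highest value in OVX replicate 1. Ctsll3, a paralogue of Ctsl from the placental cathepsins, was at 0 and 0.7 CPM in E4.5, 206 and 235 in OVX, 15.9 and 899 in targeted OVX and at most 2.43 CPM in every other library, and reads of the 2 paralogues may not be told apart by the deposited counting.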

How the data were processed

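RNA of whole mouse blastocysts was made into cDNA with a SMART-Seq v4 low-input kit, per the labels' protocols, without molecular identifiers, so reads are not independent molecules. The authors deposited 1 table with a read count and an FPKM value per gene and library. The submitters' processing notes name cutadapt 1.9, HISAT2 2.0.4, StringTie 1.3.4d and the build GRCm38. The counting tool, its strand setting and the annotation are not given in the sources used here, so the deposited counts were treated as estimated counts (expected counts) and rounded. The deposited FPKM are scaled by gene length and library total, per the file headers, and were used to compare genes and for limma.

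Counts of all 13 libraries were fitted in 1 model with edgeR 4.0.16 in R 4.3.3 (filterByExpr, TMM scaling, quasi-likelihood test, group means), with p-values adjusted by Benjamini-Hochberg over 21808 of 31528 genes. The residual degrees of freedom were 7 and the common biological coefficient of variation 0.896. Groups of 2 or 3 libraries limit the precision. The calls were tested on simulated data. Fold changes are log2 coefficients with their SE from the fit, and no 2 libraries were identical. Of the gene identifiers, 31439 were in GENCODE M21 and 27340 of these (87.0%) had identical coordinates.

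Alternatives were DESeq2 1.42.0, limma 3.58.1 on log2(FPKM + 1) of genes with an FPKM of at least 1 in 2 libraries, other scalings, offsets for gene length, no filter on low counts or a mean CPM of at least 5, only the 2 groups compared, the replicate number as a block, and each library left out in turn. A term for 4 libraries with muscle transcripts was added after the data were seen. The members, classes and other lists were chosen with earlier results of these data known. Members called in at least 1 comparison (the rule asked for up to 6 per class, and all are given) and the 2 most abundant of each class are given in every library, the others by ranges and counts. The other counts of the list of further hydrolases are not reported here.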

Additional observations from a re-analysis of the deposited data

Results flagged for a closer look

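For 12 results the fold change over E4.5 differed between 2 groups, by the test of the difference itself (edgeR, adjusted over all genes). Ctsz differed by −2.96 on the log2 scale between starvation and OVX (adjusted p = 0.038), with −0.47 and 2.49 against E4.5. Ctsh differed by −3.16 between depleted KSOM and OVX (adjusted p = 0.04), with 0.31 and 3.47 against E4.5.

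The other 10 were differences of reduced from depleted KSOM. Gusb differed by −2.15 (adjusted p = 0.015), Gm2a by −1.69 (0.034), Psap by −1.56 (0.015), Neu1 by −1.40 (0.043), Lamp2 by −1.38 (0.045), Hexa by −1.31 (0.033), Lamp1 by −1.26 (0.045), Lgmn by −1.25 (0.031), Ctsa by −1.22 (0.037) and Asah1 by −1.21 (0.04). Psap was −1.59 against E4.5 in reduced KSOM and −0.03 in depleted KSOM, whereas the other 9 lay above E4.5 in both media, by less in reduced KSOM. None of the 10 calls was kept without depleted KSOM replicate 1 (adjusted p from 0.088 to 0.49).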

How the results depend on the processing

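The size of the 10 counts of called members depended on the tool, the filter and single libraries. The balance of higher and lower calls turned in reduced KSOM against E4.5 with library totals (1 higher and 2 lower, from 4 and 1) and in depleted KSOM against OVX with limma (2 and 0) and DESeq2 (6 and 3, from 0 and 1), and in targeted OVX against E4.5 it went from 2 and 2 to 1 and 5 with library totals. DESeq2 called 21 members in OVX against E4.5, 14 in reduced KSOM against E4.5, 12 in targeted OVX against E4.5, 7 in targeted OVX against OVX, 5 in starvation against OVX, 9 in depleted KSOM against OVX and 5 in reduced KSOM against OVX. With no filter on low counts the counts were 17 in OVX, 12 in reduced KSOM and 10 in targeted OVX against E4.5, and 6, 4, 5 and 5 in targeted OVX, starvation, depleted KSOM and reduced KSOM against OVX. A mean CPM of at least 5 gave 7 in targeted OVX against E4.5 and 3 in depleted KSOM against OVX. limma on FPKM gave 7 in targeted OVX against E4.5 and 2 in depleted KSOM against OVX. Counts over all genes moved with the setting and with the library left out too, such as 2019 by DESeq2 in OVX against E4.5, where the main fit called 445.

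Library totals as scaling gave 4 in OVX, 5 in starvation and 3 in reduced KSOM against E4.5, and 0 in starvation and 0 in depleted KSOM against OVX. For reduced against depleted KSOM, median-of-ratios scaling gave 6 and gene length offsets 4. With only the 2 groups compared, fewer residual degrees of freedom are left. The counts were then 0 in OVX, 0 in starvation, 13 in reduced KSOM and 0 in targeted OVX against E4.5. They were 0 in starvation and 0 in depleted KSOM against OVX, and 18 in reduced against depleted KSOM. For each of the 0s listed here the count over all genes was 0 too, so these 0s say nothing about the members. In reduced KSOM against OVX 0 members were called by this setting, where 26 of 18669 genes were. In reduced KSOM, 2462 of all 19373 genes were called against E4.5 and 4455 of 18505 against depleted KSOM. The term for the 4 libraries with muscle transcripts gave 4 in OVX and 0 in reduced KSOM against E4.5. It gave 1 in targeted OVX and 0 in starvation against OVX, and 0 in reduced against depleted KSOM. Over all genes it gave 227, 2, 54, 2 and 0 in the same order, so its 0s say little about the members. The causes of these changes were not tested.

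The labels do not say that a replicate number marks a shared animal or day. Deviations of same-numbered libraries correlated between −0.064 and 0.162, over 0.1 in 4 of 20 pairs, so the numbers were not taken to pair the libraries. In groups of 2 the deviations mirror each other, so each value appears for both replicate numbers. The 20 pairs are therefore not independent of each other. With the replicate block the counts were 1 in reduced KSOM against E4.5, 0 in starvation and 0 in depleted KSOM against OVX, and 3 in reduced against depleted KSOM. Over all genes this block gave 59, 0, 73 and 479 in the same order, so the 0 in starvation says nothing about the members. The other 6 counts stayed within 1.5 times the count without the block.

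With 1 library left out, the other library of a group of 2 is assumed to vary like the other groups. The counts then ran from 2 to 11 in OVX, 2 to 12 in starvation, 8 to 12 in depleted KSOM, 0 to 3 in reduced KSOM and 1 to 3 in targeted OVX against E4.5. They ran from 0 to 3 in targeted OVX, 1 to 4 in starvation, 0 to 2 in depleted KSOM and 0 to 1 in reduced KSOM against OVX, and from 0 to 3 in reduced against depleted KSOM.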
